A study of Mus musculus with 6 samples.

Results

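The cells described here are arterial endothelial cells of mouse inguinal white adipose tissue (iWAT), the cells that line the small arteries and arterioles of this fat depot. They were picked from single-cell RNA-seq matrices by a rule on measured transcripts. A barcode was kept when it held at least 1000 UMIs (unique molecular identifiers, each one counted transcript), under 10% mitochondrial UMIs, fewer than 30 UMIs of the fibroblast transcript Dcn per 10000, at least 3 UMIs of the endothelial genes Cdh5, Pecam1 and Cldn5 together, at least 2 UMIs of the arterial genes Gja5, Gja4, Hey1 and Sema3g together, at most 2 UMIs of the venular genes Plvap and Lrg1, and none of the lymphatic genes Prox1 and Mmrn1. The rule kept 704 of 68103 barcodes (1.03%), which is 13.9% of the 5054 barcodes that met its blood endothelial conditions. The other 4350 blood endothelial barcodes, 1074 with 3 or more UMIs of Plvap and Lrg1 and 3276 without, are the cells that the arterial cells are set beside.

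The study asked how ageing and cold change the stromal cells of iWAT. The animals were C57BL/6 mice with no other allele named, 9 weeks of age in the young and 57 weeks in the aged groups. Every mouse first lived at 30 °C for 3 weeks. The thermoneutral (TN) groups kept that temperature to the end, while the cold groups had 3 days (3D) or 14 days (14D) at 6 °C just before collection. Stromal vascular cells were digested out of the depot, red cells were lysed, and live CD45-negative cells were sorted before droplet capture. The sort enriched non-immune cells, endothelial cells among them, but did not select endothelial cells from the other non-immune cells. There was 1 library for each age and temperature, 6 in all, and the number of mice behind each library is not given in the sources used here, while the methods for these cells say that animals were kept separate except where stated. Cells of 1 library are not replicates, so every test compares libraries, and the p-values measure only the spread between these 6 libraries.

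Arterial endothelium is set apart from capillary and venous endothelium by Notch signalling. The ligands Dll4, Jag1 and Jag2 on one cell activate the receptors Notch1 and Notch4 on the next, and the freed receptor domain works with the DNA-binding protein Rbpj to switch on repressors of the Hes and Hey families. Arterial cells are joined by the connexins Gja5 and Gja4, carry ephrin B2 (Efnb2), and lay down the elastic layer on which smooth muscle rests. In adipose tissue the capillaries behind these vessels take up lipid through Gpihbp1, Cd36 and Fabp4.

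The 4 arterial genes of the rule were detected unevenly among the members. Sema3g, a secreted class 3 semaphorin, had a UMI in 587 of 704 members (83.4%), Hey1 in 377 (53.6%), Gja4 (connexin 37) in 330 (46.9%) and Gja5 (connexin 40) in 143 (20.3%). Of the members, 216 had UMIs of 1 of the 4 genes, 287 of 2, 157 of 3 and 44 of all 4. Most members were thus chosen on part of the set. These values chose the cells and are given as a description.

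At the level of UMI sums, given in CPM (UMIs of a gene per 1000000 UMIs of all members in a library, the totals scaled by the TMM factors of edgeR), Gja5 stood at 69.2, 44.0 and 79.3 CPM in the young libraries (TN, 3D and 14D) and 83.5, 49.4 and 93.0 CPM in the aged libraries. Gja4 stood at 169.6, 337 and 389.7 CPM in young and 224, 238 and 237 CPM in aged libraries, with the lowest value in young TN. Hey1 stood at 183, 247 and 348 CPM in young and 268, 275 and 224 CPM in aged libraries. For Sema3g the values were 464, 423 and 319.7 CPM in young and 472, 447 and 548 CPM in aged libraries. The ages overlapped for all 4 genes. Over the other blood endothelial cells the means were 5.83 CPM for Gja5, 51.7 CPM for Gja4, 33.5 CPM for Hey1 and 42.5 CPM for Sema3g, levels held down by the rule itself.

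The promoters used held no entry for Hey1. The sequences just before the start of the other 3 arterial genes of the rule, and of the elastic-fibre gene Fbln5, which the rule did not use, are shown. Those 3 genes helped to choose the cells, Fbln5 is an arterial marker, and Notch acts on promoters through Rbpj and the Hes and Hey repressors. Each sequence is the 250 bases before the RefSeq gene start on the build GRCm38.p6, read 5′ to 3′ on the strand of the gene. Gja5 is at chr3:97032152-97032401, plus strand, Gja4 at chr4:127314040-127314289, minus strand, Sema3g at chr14:31217623-31217872, plus strand and Fbln5 at chr12:101819120-101819369, minus strand. Capitals mark exact matches, on either strand, to TGGGAA (the core of the Rbpj site), CACGTG or CACGCG (forms bound by Hey factors), ATTGT, a core bound by Sox factors, or AGATAA, bound by Gata factors.
Gja5: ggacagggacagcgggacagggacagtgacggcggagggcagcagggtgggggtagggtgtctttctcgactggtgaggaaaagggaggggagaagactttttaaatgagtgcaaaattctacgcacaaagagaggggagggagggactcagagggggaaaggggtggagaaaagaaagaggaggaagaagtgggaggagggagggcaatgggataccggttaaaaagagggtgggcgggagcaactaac
Gja4: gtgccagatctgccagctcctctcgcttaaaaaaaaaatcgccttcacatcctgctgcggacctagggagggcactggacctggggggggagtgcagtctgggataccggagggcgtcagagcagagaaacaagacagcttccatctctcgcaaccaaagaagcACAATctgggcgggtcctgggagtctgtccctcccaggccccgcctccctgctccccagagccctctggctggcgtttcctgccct
Sema3g: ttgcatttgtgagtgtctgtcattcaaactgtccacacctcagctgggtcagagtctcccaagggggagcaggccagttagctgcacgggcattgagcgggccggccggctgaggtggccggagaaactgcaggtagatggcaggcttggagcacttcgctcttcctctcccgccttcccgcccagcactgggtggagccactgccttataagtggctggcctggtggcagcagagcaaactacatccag
Fbln5: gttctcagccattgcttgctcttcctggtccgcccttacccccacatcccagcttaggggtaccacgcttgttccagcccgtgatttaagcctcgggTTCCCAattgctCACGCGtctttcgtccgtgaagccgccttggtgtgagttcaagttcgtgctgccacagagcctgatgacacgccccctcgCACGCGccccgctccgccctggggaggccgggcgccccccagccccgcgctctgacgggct

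The windows of Gja5 and Sema3g held none of these letters, that of Gja4 held ATTGT once, 86 bases before the start, and that of Fbln5 held TGGGAA once, 153 bases before the start, and CACGCG at 141 and 61 bases before it. TGGGAA stood in 21.5% of all 27025 promoters of the table and in 5 of the 25 promoters found for arterial markers. These 25 are the markers outside the rule that had an entry, together with Gja5, Gja4 and Sema3g of the rule. CACGCG stood in 7.74% of all promoters and in 4 of the 25, and ATTGT in 28.3% and in 7 of the 25. CACGTG and AGATAA, in 6.05% and 10.3% of all promoters, were in none of the 25. A match is only a description of these letters.

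The edges of the rule were broad. Just inside its arterial threshold lay 214 members with 2 arterial UMIs, and just outside lay 577 barcodes with 1 arterial UMI that met every other condition. Just inside its venular limit lay 74 members with 2 UMIs of Plvap and Lrg1, and just outside lay 46 barcodes with 3, among 305 barcodes that had the arterial UMIs but 3 or more venular UMIs. Fbln5, a fibulin needed for elastic fibres, followed the arterial UMIs across this edge, at 231, 502, 819 and 1212 CPM in barcodes with 1, 2, 3 to 4 and 5 or more arterial UMIs. In this paragraph CPM are UMIs per 1000000 UMIs of a class, pooled over the 6 libraries without TMM factors. Mgp, a matrix protein that blocks calcification, was lowest with 1 arterial UMI and stood at 255, 302 and 1094 CPM in the other 3 classes. Gpihbp1, the capillary carrier of lipoprotein lipase, ran the other way, at 3688, 2705, 2102 and 1133 CPM. Barcodes with more arterial UMIs were also deeper, with a median of 2813 UMIs at 1 arterial UMI, 3131 at 2 and 6352 at 10 or more.

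The members were spread over all 6 libraries, with 110, 98 and 95 in the young and 216, 106 and 79 in the aged libraries at TN, 3D and 14D. Their summed UMIs ran from 300705 in aged 14D to 828463 in aged TN, within libraries of 52068837 to 88508349 UMIs. The median member held 4603, 4723 and 3662 UMIs in the young and 3377.5, 3762 and 3185 UMIs in the aged libraries, against 3090.5 UMIs over all other blood endothelial cells. Aged 14D was the shallowest library and aged TN gave the most members. Of the 704 member barcode sequences, 11 also occurred in another library, and none was a member in 2 libraries.

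Arterial cells made up 16.1, 15.5 and 11.9% of blood endothelial barcodes in the young libraries (TN, 3D, 14D) and 13.6, 12.3 and 16.2% in the aged libraries. The means, 14.5 ± 2.26% in young and 14.0 ± 2.02% in aged (SD, n = 3 libraries each), lay closer together than the libraries within an age (exact permutation test, two-sided, p = 1.0, with 0.1 the smallest p that 3 against 3 can give). As a share of all barcodes past the depth and mitochondrial limits the values were 1.21, 0.942 and 0.850% in young and 2.14, 1.01 and 0.791% in aged libraries (exact permutation test, p = 0.7). The aged TN library stood above the other 5, and without it the aged minus young difference was -0.0991 percentage points, against 0.314 with it. The sort and the depth limit enter the second share, and their part in it was not tested. With every barcode thinned to 2000 UMIs before the rule was applied the arterial share of blood endothelial barcodes was 10.7 ± 0.750% in young and 10.4 ± 1.27% in aged libraries, over libraries that lost their barcodes under 2000 UMIs. Of all barcodes kept after thinning, arterial cells made up 0.605, 0.566 and 0.583% in young and 1.35, 0.576 and 0.574% in aged libraries, so that aged TN still stood above the other 5.

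**Figure D1:**
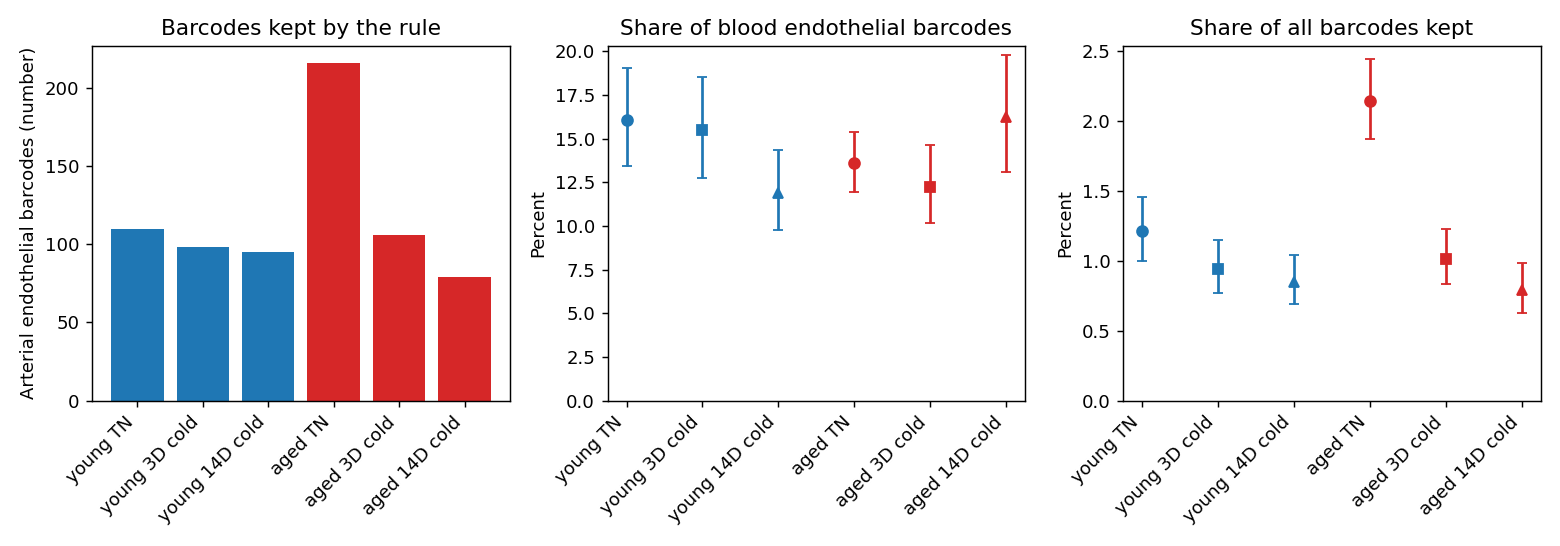
Number of arterial endothelial barcodes per library (left, bars), their share of blood endothelial barcodes (middle, percent) and their share of all barcodes kept (right, percent), with exact binomial 95% intervals that cover counting error only. The young (blue) and aged (red) shares of blood endothelial barcodes overlap, and aged TN stands highest in number (216) and in share of all barcodes (2.14%).

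The label was checked on arterial markers that the rule did not use. Of 28 such genes 27 were listed in the files and 26 were measured. A gene counts as measured, here and below, when its mean levels in arterial and other blood endothelial cells add up to at least 20 CPM. Of the 26, 23 were higher in arterial than in other blood endothelial cells in 6 of 6 libraries and 1, the chemokine gene Cxcl12, was lower in 6 of 6. Their median log2 ratio was 1.16, against -0.0045 over the 8191 genes measured, of which 1026 were higher and 800 lower in 6 of 6 libraries. The rule set these cells apart on related genes of the same barcodes, so these ratios carry no test. The name arterial endothelial cells was kept.

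Fbln5 stood at 805, 1011 and 1034 CPM in young and 921, 942 and 798 CPM in aged libraries, and at 118 CPM on average in the other blood endothelial cells, a log2 ratio of 2.96 ± 0.19 (SD, n = 6 libraries, as for the ratios that follow). The arterial level was the higher one in every library. With barcodes thinned to 2000 UMIs, Fbln5 had a UMI in 67.9% of members, 11.9% of other blood endothelial cells and 18.1% of the Dcn-high fibroblast barcodes. Stmn2, a microtubule-binding stathmin better known from neurons, stood at 287, 445 and 373 CPM in young and 476, 393 and 385 CPM in aged libraries against 45.5 CPM in the other cells (ratio 3.1 ± 0.30). It had a UMI in 43.0% of thinned members, 5.73% of the other blood endothelial cells and 0.0540% of Dcn-high barcodes.

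Notch ligands and receptors were also higher in the arterial cells. The ligand Dll4 stood at 154, 186 and 156 CPM in young and 182, 150.3 and 164 CPM in aged libraries against 96.9 CPM in the other blood endothelial cells (ratio 0.76 ± 0.17). The ligands Jag1 (1.61 ± 0.36), Jag2 (1.08 ± 0.25) and Dll1 (0.98 ± 0.32), the receptors Notch1 (0.77 ± 0.14) and Notch4 (0.65 ± 0.23) and the Notch target and feedback inhibitor Nrarp (0.81 ± 0.42) were each higher in 6 of 6 libraries. Hes1, a repressor that many signals besides Notch induce, did not separate the cells, with a ratio of -0.060 ± 0.39 and 3 of 6 libraries higher. Over the Notch list 12 of 24 measured genes were higher and 2 lower in 6 of 6 libraries. The 12 include Notch3, which is also a pericyte marker, and the part of pericyte RNA in this count was not tested. Efnb2, the ephrin that marks arteries, stood at 296, 213 and 292 CPM in young and 309, 296 and 298 CPM in aged libraries against 99.4 CPM (ratio 1.50 ± 0.19), and Sox17, an arterial transcription factor, was closer between the cells (0.37 ± 0.35).

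Of 25 measured genes of vascular tone and nitric oxide 8 were higher and 7 lower in arterial cells in 6 of 6 libraries, with a median log2 ratio of 0.034. Edn1, the vasoconstrictor endothelin 1, stood at 229.8 CPM in arterial and 40.7 CPM in other blood endothelial cells (ratio 2.5 ± 0.43). S1pr1, a receptor for sphingosine 1-phosphate that tightens the endothelium, had a ratio of 0.69 ± 0.10, while the caveolin Cav1 (0.034 ± 0.26) did not separate the cells. In the list of vessel wall matrix 16 of 32 measured genes were higher and 9 lower in 6 of 6 libraries. The higher ones included Col8a1 (3.04 ± 0.34), the fibulin Fbln2 (2.31 ± 0.48), Mgp (2.54 ± 0.64) and Ltbp4 (1.08 ± 0.095), which ties growth factors and elastic fibres to the matrix. The basement membrane collagens Col4a1 (-0.26 ± 0.21) and Col4a2 (-0.38 ± 0.12) were lower in 6 of 6.

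On the capillary side, none of 13 markers was higher in arterial cells in 6 of 6 libraries and 7 were lower, with a median log2 ratio of -0.32. Gpihbp1 stood at 1839.6 CPM in arterial and 3284 CPM in other blood endothelial cells (ratio -0.84 ± 0.17), and Kdr, the main receptor for VEGF, had a ratio of -1.0 ± 0.18. Fabp4, a fatty acid binding protein, was the most abundant gene of that list and stayed at 38940.2 CPM in the arterial cells. In Dcn-high barcodes Fabp4 stood at 1011 CPM, and the part of free RNA in its arterial level was not tested.

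Among all genes outside the rule with at least 100 CPM in arterial cells, 395 of 1630 were higher in 6 of 6 libraries. Of the 20 with the largest ratios 8 went with UMIs of mural cells, the smooth muscle cells and pericytes. Besides Fbln5, Stmn2, Col8a1, Mgp, Fbln2 and Edn1 they included Cytl1, a small secreted protein (3.73 ± 1.55), Alpl, the tissue alkaline phosphatase (3.45 ± 0.35), St8sia6, a sialyltransferase (3.33 ± 0.46), the calcium-binding S100a4 (3.16 ± 0.77), the growth factor Vegfc (2.73 ± 0.31) and Atp2a3, a calcium pump (2.23 ± 0.67). Cytl1 lay between 27.7 and 73.8 CPM without its top barcode in each library, under the 100 CPM limit. Without Dcn UMIs its ratio was 2.61, with 5 of 6 libraries higher. The other 8 of the 20 were Acta2 (2.98 ± 0.78), Myh11 (2.35 ± 0.72), Myl9 (2.10 ± 0.48), Tpm2 (2.07 ± 0.71) and Ppp1r14a (2.33 ± 0.48), which serve smooth muscle contraction, Rgs5 (2.27 ± 0.60), a pericyte gene, and Ndufa4l2 (2.14 ± 0.42) and Mnd1 (2.13 ± 0.28).

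These 8 genes followed a minority of barcodes. Of the 704 members 177 (25.1%) held 3 or more UMIs of the mural genes Acta2, Myh11, Tagln and Rgs5, against 448 of 4350 (10.3%) other blood endothelial cells, and 135 members held 95.7% of all such UMIs. Whether these members are doublets of an endothelial and a mural cell or carry free mural RNA was not tested. With those barcodes left out on both sides, an alternative chosen after the data had been seen, the mean log2 ratio was -0.44 for Acta2, -0.80 for Myh11, -1.11 for Myl9, -1.74 for Tpm2, -0.53 for Ppp1r14a, -1.30 for Ndufa4l2, -1.50 for Mnd1 and 0.051 for Rgs5. The choice of barcodes by Acta2, Myh11 and Rgs5 lowers those 3 by construction. The other 12 of the 20 kept ratios of 2.56 to 4.57 and were higher in 6 of 6 libraries.

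The 10 genes with the lowest ratios were not all set apart from the cells most like the arterial ones. The other blood endothelial cells fall into those with at most 2 UMIs of Plvap and Lrg1 and those with 3 or more, which the rule leaves out. Col13a1, a transmembrane collagen (ratio -5.45 ± 1.19), stood at 2.83, 1.03 and 338 CPM in arterial cells, the first and the second of these classes. Itm2a (ratio -4.33 ± 1.40) stood at 10.8, 12.5 and 566 CPM, Slco2a1, a prostaglandin transporter (ratio -2.93 ± 1.64), at 16.7, 2.73 and 296 CPM and Ehd4 (ratio -2.13 ± 0.68) at 87.1, 45.4 and 969.9 CPM in the same order. For these 4 genes the level of the first class was near or under that of arterial cells, and the low ratio came from the second class. Col15a1 (20.5, 46.9 and 328 CPM, ratio -3.27 ± 1.02) and Vwa1 (25.4, 59.0 and 456 CPM, ratio -3.04 ± 0.69) were also highest in the second class. Aqp1, the water channel, stood at 155, 1608 and 749 CPM (ratio -3.18 ± 0.62), Nrp2 at 47.9, 205 and 182 CPM (ratio -2.01 ± 0.35) and Gngt2 at 63.0, 195 and 335 CPM (ratio -1.98 ± 0.30), lowest in arterial cells of the 3. The chemokine gene Cxcl9, at 63.2, 573 and 72.2 CPM (ratio -2.75 ± 0.86), was high in the first class. In all, 344 of 1565 genes with at least 100 CPM in the other cells were lower in 6 of 6 libraries.

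**Figure D2:**
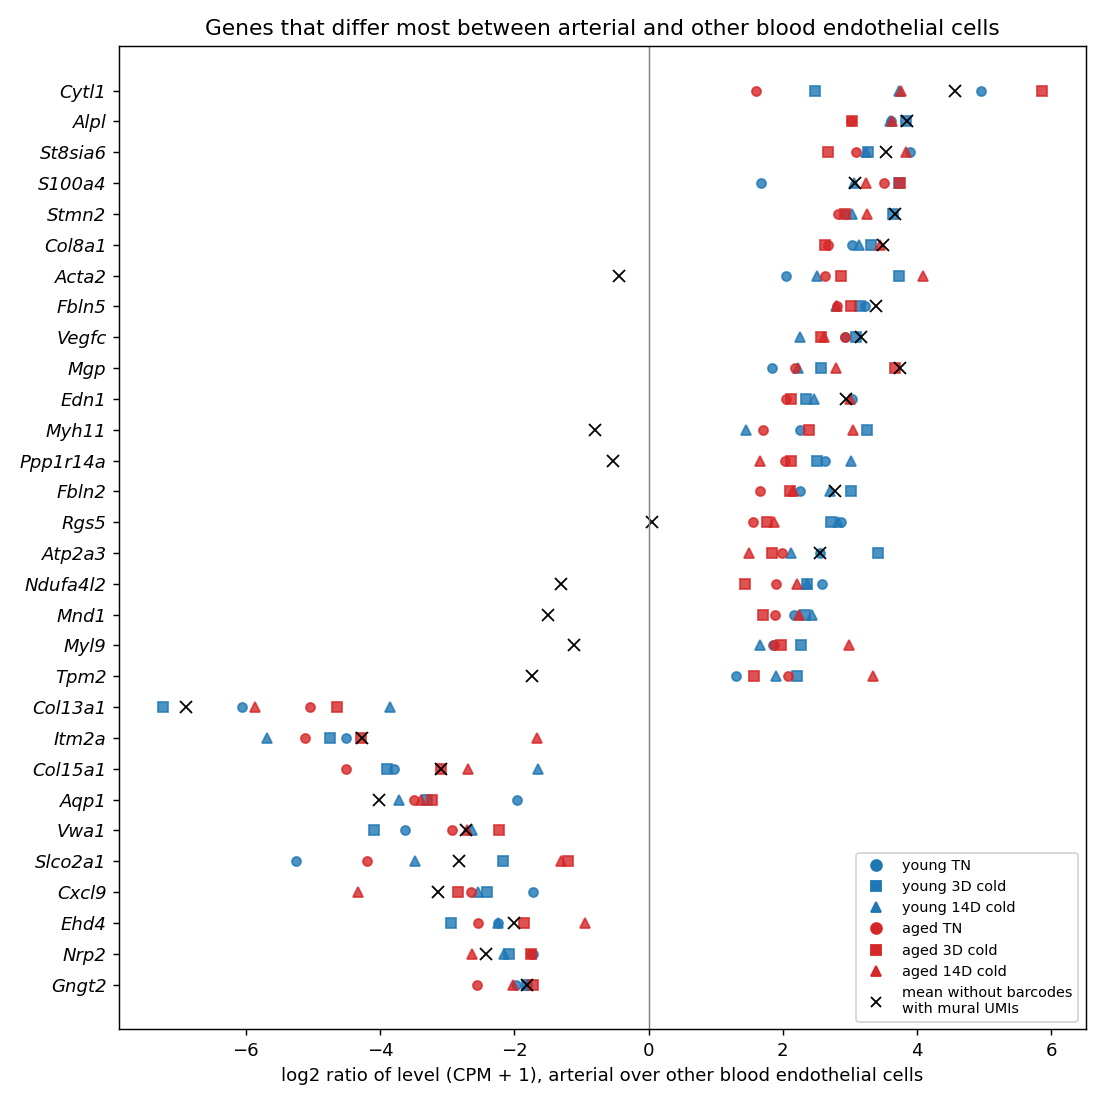
Per-library log2 ratios of level (CPM + 1), arterial over other blood endothelial cells, for the 20 genes with the largest ratios and the 10 with the smallest. Points are coloured by age and shaped by temperature, and black crosses give the mean without barcodes that held mural UMIs. All points lie on 1 side of 0 for each gene, and the crosses of Acta2, Myh11, Ppp1r14a, Ndufa4l2, Mnd1, Myl9 and Tpm2 lie on the other side, with that of Rgs5 near 0.

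Markers of other cell types were summed over the members of each library, because such RNA enters the level of any gene in the sums. Vascular smooth muscle markers (10 genes, Acta2 the most abundant, Actg2 at 0) stood at 2649, 3145 and 2007 CPM in young and 2700.2, 1202 and 3829 CPM in aged libraries. Pericyte markers (7 genes, Rgs5 the most abundant) stood at 1824, 2597 and 1785 CPM in young and 1075, 1726 and 1594 CPM in aged libraries. Fibroblast markers (12 genes, Gsn the most abundant) stood at 1763, 2374 and 2145 CPM in young and 1114, 1421 and 2517 CPM in aged libraries. A Dcn UMI was present in 327 members (46.4%), and in 73.4% of those of aged 14D. Fibroblast markers were lowest in aged TN and aged 3D, while aged 14D lay above all young libraries.

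Adipocyte markers (7 genes, Car3 the most abundant) stood at 391, 1060.3 and 352 CPM in young and 432, 1265 and 404 CPM in aged libraries, so that both 3D libraries were high. Haemoglobin, from 4 genes led by Hbb-bs, stood at 2928, 6359.9 and 5209 CPM in young and 1634, 8130.3 and 6.41 CPM in aged libraries, but 9 members held 99.8% of its 12785 UMIs. Immune markers (11 genes, Cd68 the most abundant) were at most 28.7 CPM, with Ptprc, C1qb, Adgre1 and Cd3e at 0 in all libraries. Lymphatic markers (7 genes, Flt4 the most abundant) were at most 53.7 CPM with Prox1, Mmrn1 and Nts at 0. Venous markers (9 genes, Nr2f2 the most abundant, Sele at 0) stood between 339 and 394 CPM. A doublet caller gave high scores to 43 of the 704 members, which were kept, and to 86 of the 4350 other blood endothelial cells. High scores were the top ones of each library, their number set by an assumed rate of 0.8% per 1000 barcodes.

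**Figure D3:**
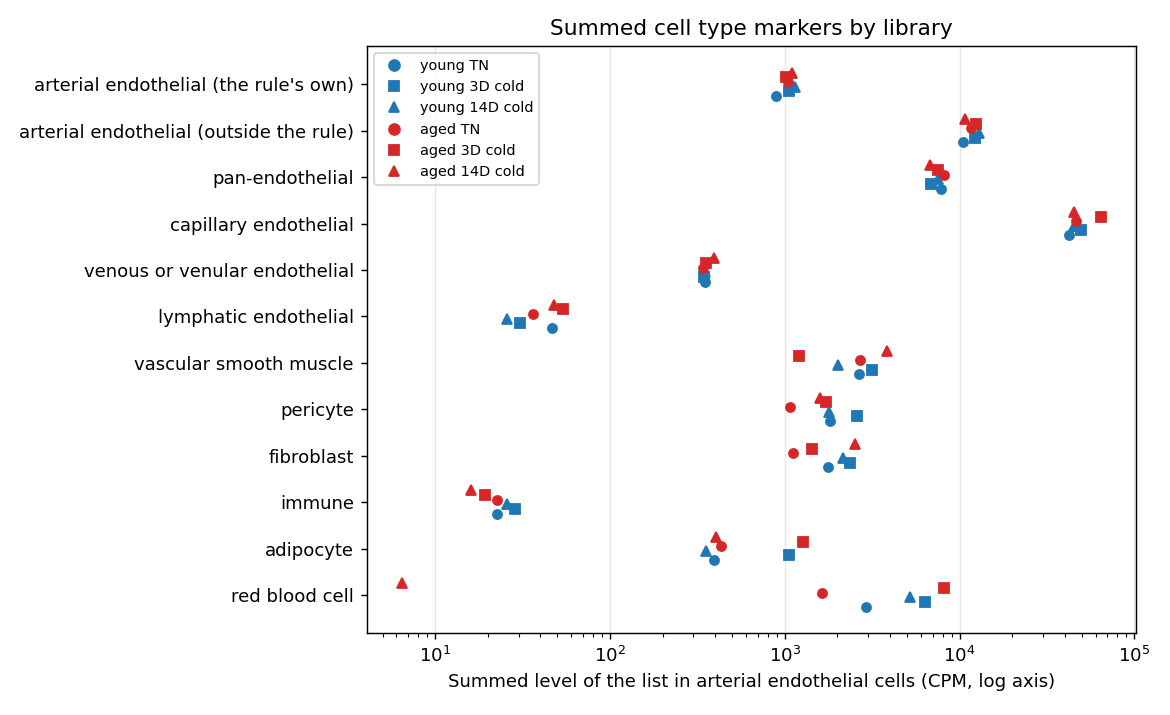
Summed level of 12 marker lists in arterial endothelial cells (CPM, log axis), one point per library, coloured by age and shaped by temperature. The adipocyte points of both 3D libraries stand apart from the other 4, and the haemoglobin point of aged 14D lies at 6.41 CPM.

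To ask how age changed the arterial cells, UMI sums of the 3 aged libraries were compared with those of the 3 young libraries, with temperature as a term in the model (edgeR quasi-likelihood F test with Benjamini-Hochberg adjustment). Of 6448 genes tested 19 passed an adjusted p of 0.05 (0.295%), 10 higher and 9 lower in aged cells, and 608 had an unadjusted p under 0.05. The matrix gene Sparc and 4 collagen genes fell, and Il6, Crispld2, Nepn and Adamts1 were among those that rose. The levels of the ages did not overlap for 897 genes (13.9% of those tested), 434 higher and 463 lower in aged cells. The number that passed rested on the libraries and settings used, with 58 without young TN, 2 without young 3D, 11 without young 14D, 57 without aged TN and 40 without aged 14D, and DESeq2 called 8. It was 2 without high doublet scores, 2 with equal barcodes at 2000 UMIs, 1 without mural UMIs and 0 with no temperature term. It was 62 with no filter on low counts, 37 without each gene's top barcode and 35 with at least 3 arterial UMIs.

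Sparc, a secreted protein that binds collagen and tunes matrix assembly (ENSMUSG00000018593, chr11:55394500-55423183, minus strand on GRCm38), stood at 3528, 3766 and 5122 CPM in young and 2012, 2329 and 2386 CPM in aged libraries. All 3 aged libraries lay below all 3 young ones, and 94.3% of members held a UMI. The means were 4139 ± 860.1 CPM in young and 2243 ± 201 CPM in aged libraries (SD, n = 3 each), a log2 fold change of -0.86 ± 0.089, edgeR adjusted p = 5.13e-05, where ± after a fold change is its standard error, here and for the genes that follow. It fell in the other blood endothelial cells as well (log2 fold change -0.54, edgeR adjusted p = 0.0122), and in the Dcn-high fibroblast barcodes, where its level is higher, the difference was -0.99. Sparc passed in 18 of 19 alternatives, and was the 1 gene that passed without barcodes holding mural UMIs (-0.69, edgeR adjusted p = 0.0352).

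Col4a1, a chain of basement membrane collagen, stood at 748, 707 and 996 CPM in young and 492, 487 and 555 CPM in aged libraries. No aged library reached a young one (log2 fold change -0.65 ± 0.12, edgeR adjusted p = 0.0177), but without barcodes holding mural UMIs the difference was -0.41 (edgeR adjusted p = 0.518). Summed pericyte markers were lower in all 3 aged libraries than in any young one, and their part in this difference was not tested. The interstitial collagens Col1a1 (log2 fold change -1.33 ± 0.23, edgeR adjusted p = 0.0115), Col1a2 (log2 fold change -1.19 ± 0.21, edgeR adjusted p = 0.0116) and Col3a1 (log2 fold change -1.09 ± 0.19, edgeR adjusted p = 0.0115) fell too, at levels of 1.83, 2.29 and 2.58% of those in Dcn-high barcodes, where the same genes differed with age by -1.27, -0.93 and -0.93. These 3 are the fibroblast markers that passed, of 8 tested, all 8 of which were lower in aged cells (median log2 fold change -1.03). The part of fibroblast RNA in their fall was not tested. For Col3a1 the ages overlapped, since aged 14D (314 CPM) stood above young TN (266 CPM).

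Periostin (Postn), a matrix protein of remodelling tissue, fell (log2 fold change -0.79 ± 0.15, edgeR adjusted p = 0.0179) with overlapping ages, at 183, 449.8 and 310.4 CPM in young and 111, 236 and 189 CPM in aged libraries. Its mean level was 103% of that in Dcn-high barcodes, where it differed with age by -2.82. Ppp1r14a, the inhibitor of myosin phosphatase and 1 of the 8 genes of mural-rich barcodes, stood at 135, 162 and 128 CPM in young and 86.0, 58.0 and 70.5 CPM in aged libraries and fell (log2 fold change -0.97 ± 0.20, edgeR adjusted p = 0.0328). Hopx, a small homeodomain protein without DNA binding of its own, stood at 81.3, 103 and 84.0 CPM in young and 31.2, 45.1 and 32.1 CPM in aged libraries with no overlap (log2 fold change -1.31 ± 0.22, edgeR adjusted p = 0.0115). It also fell in the other blood endothelial cells (edgeR adjusted p = 0.0148). Maf, a transcription factor, had the largest fall of the 9 (log2 fold change -2.63 ± 0.40, edgeR adjusted p = 0.00715), with means of 41.1 ± 18.7 CPM in young and 6.66 ± 1.81 CPM in aged libraries (SD, n = 3 each), but it had UMIs in 44 members and lies under the 50 CPM required of the genes chosen for naming, so it was singled out after its values had been seen, as was Ubd.

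Among the genes that rose, Il6, the gene of the cytokine interleukin 6 (ENSMUSG00000025746, chr5:30013114-30019981, plus strand), stood at 38.1, 22.0 and 25.7 CPM in young and 61.1, 114 and 151 CPM in aged libraries. The aged libraries were all above the young ones (log2 fold change 1.80 ± 0.30, edgeR adjusted p = 0.0115). It had a UMI in 73 of 704 members (10.4%), and its mean level was 68.5 CPM in arterial, 35.8 CPM in other blood endothelial and 208 CPM in Dcn-high barcodes. In the other blood endothelial cells the difference with age was 0.69 (edgeR adjusted p = 0.142).

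Crispld2, a secreted protein that binds lipopolysaccharide, stood at 55.4, 49.0 and 11.7 CPM in young and 118, 152 and 86.6 CPM in aged libraries (log2 fold change 1.56 ± 0.24, edgeR adjusted p = 0.00715). Its UMIs came from 62 members, and 1 barcode held 33 of 71 of them in aged 3D. Its mean level was 78.9 CPM in arterial and 133 CPM in Dcn-high barcodes, where it differed with age by 0.62, and in the other blood endothelial cells the difference was 1.47 (edgeR adjusted p = 0.0896). The part of fibroblast RNA in its rise was not tested. Nepn, a small leucine-rich proteoglycan, stood at 67.5, 42.3 and 37.3 CPM in young and 159, 79.4 and 77 CPM in aged libraries (log2 fold change 1.10 ± 0.20, edgeR adjusted p = 0.0177), with aged TN the highest. Adamts1, a protease that cleaves matrix proteoglycans, was in 82.7% of members and stood at 1329, 1393 and 1256 CPM in young and 1906, 1749.7 and 1963 CPM in aged libraries (log2 fold change 0.50 ± 0.10, edgeR adjusted p = 0.0328). The ages did not overlap for any of these 3.

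The metal-binding Mt1 (log2 fold change 0.66 ± 0.12, edgeR adjusted p = 0.0177), the nuclear long noncoding RNA Neat1 (log2 fold change 0.55 ± 0.10, edgeR adjusted p = 0.0196), Nop58, a core protein of small nucleolar particles (log2 fold change 1.05 ± 0.20, edgeR adjusted p = 0.0196), Sbno2 (log2 fold change 0.72 ± 0.14, edgeR adjusted p = 0.0328) and H2-Q7, a class I histocompatibility gene with close paralogs (log2 fold change 0.79 ± 0.16, edgeR adjusted p = 0.0328), rose without overlap between the ages. Of these 5, Mt1 (1419 CPM in arterial and 4729 CPM in Dcn-high barcodes), Neat1 (1280.2 and 1899 CPM) and Nop58 (165 and 232 CPM) were more abundant in Dcn-high barcodes, where they differed with age by 0.20, 0.28 and 0.36. Mt1 differed by 0.70 in the other blood endothelial cells (edgeR adjusted p = 0.110). Ubd, a ubiquitin-like protein induced by inflammatory cytokines, rose (log2 fold change 2.00 ± 0.35, edgeR adjusted p = 0.0115), with means of 16.4 ± 7.49 CPM in young and 64.8 ± 22.8 CPM in aged libraries (SD, n = 3 each). Of the 19 genes 6 also passed in the same direction in the other blood endothelial cells, where 155 of 10479 genes passed (1.48%), and none passed in the opposite direction. That count of 155 was 4 without aged 3D and 5 without young 3D, and between 310 (without aged TN) and 406 (without aged 14D) without any 1 of the other 4 libraries. Across the alternatives that gave a value, Il6 passed in 13 of 17, Col3a1 in 13 of 19, Crispld2 in 12 of 16, Hopx in 12 of 17, Col4a1 in 11 of 19 and Sbno2 in 5 of 19, while Sparc passed in 18 of 19 and the other 12 in 7 to 12 of 13 to 19. None of the 19 changed direction. Besides Col4a1, values moved by over 1.5 times for Col3a1 (-0.70) and Neat1 (0.36) without mural UMIs, Postn without adipocyte UMIs (-1.6) and without Dcn UMIs (-1.33), Nepn without Dcn UMIs (0.58) and Sbno2 with equal barcodes at 2000 UMIs (0.21). With the UMIs of each gene's top barcode left out in each library, an alternative added after the data had been seen, all 19 passed.

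**Figure D4:**
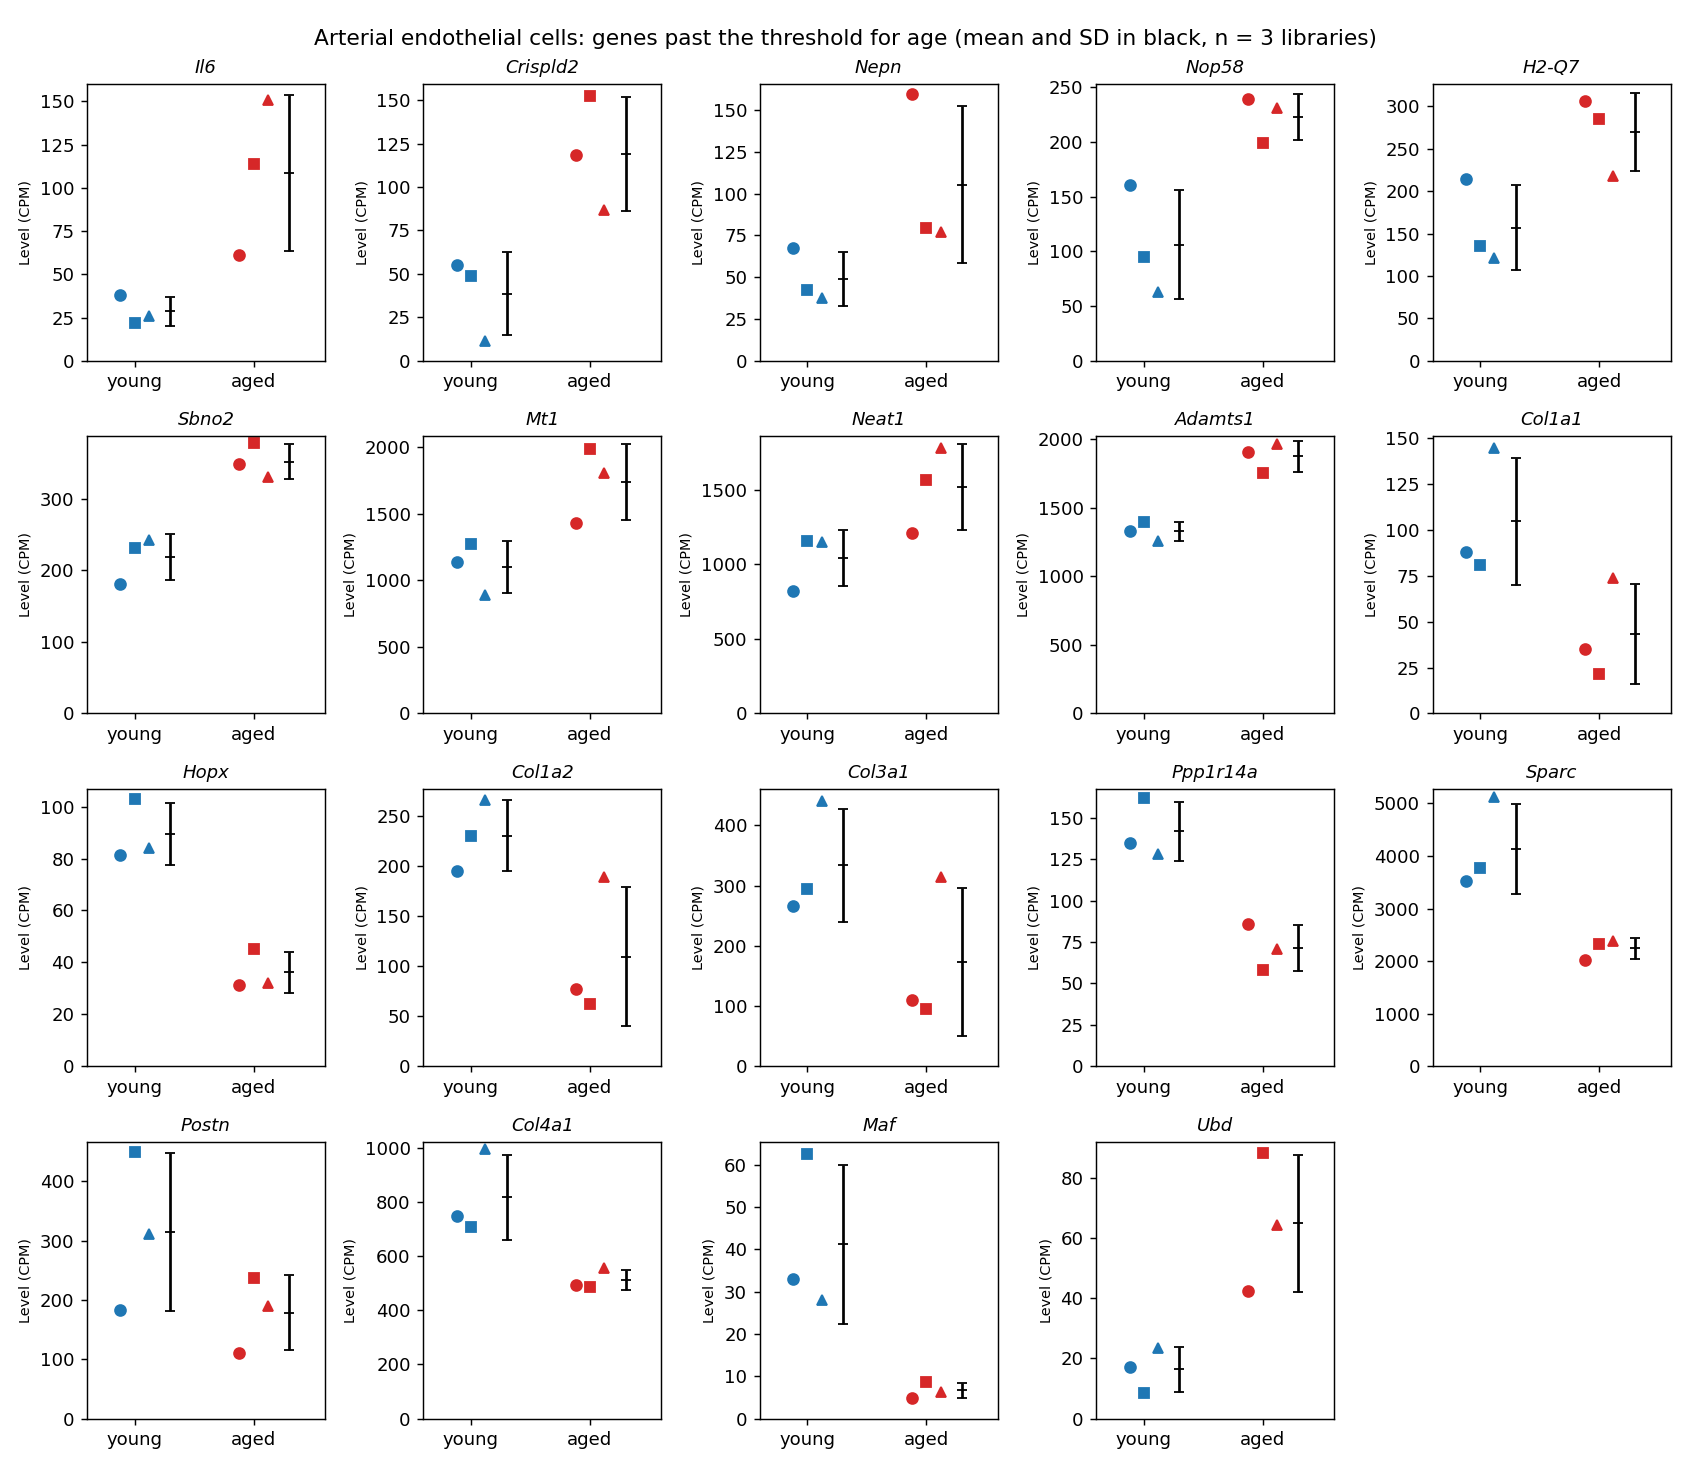
Level (CPM) of the 19 genes that passed for age in arterial endothelial cells, one panel per gene, with a point per library (circle TN, square 3D, triangle 14D) and the mean and SD over 3 libraries in black. The ages overlap for Col3a1 and Postn and are separate for the other 17.

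Of all genes tested 0.295% passed for age, so a count of 0 in a list of 12 to 26 genes is near this background and is no result about the list. None of 22 Notch genes tested passed, 11 higher and 11 lower in aged cells, with a median log2 fold change of -0.00083, against -0.0019 over all genes tested. Dll4 stood at 165 ± 17.8 CPM in young and 165 ± 15.9 CPM in aged libraries (SD, n = 3 each). None of the 26 arterial markers outside the rule passed (median -0.040), none of 21 genes of vascular tone (-0.040), none of 12 junction genes (-0.017), none of 19 angiogenic receptors and ligands (-0.0080), none of 19 genes of BMP and TGF-beta signalling (-0.067) and none of 17 genes of fat handling (0.076). A gene that did not pass is not thereby shown to be equal in both ages.

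In the flow response, which arterial cells mount to shear, none of 15 genes passed, 11 higher and 4 lower in aged cells (median 0.12). Klf2, the transcription factor that shear induces, stood at 2222, 2055 and 2418 CPM in young and 1637, 1657 and 1786 CPM in aged libraries (log2 fold change -0.39 ± 0.093, edgeR adjusted p = 0.0978), and Cdkn1a, a cell cycle inhibitor of the p53 response, stood at 1862, 1358 and 1501 CPM in young and 2406, 2402 and 1786 CPM in aged libraries (log2 fold change 0.49 ± 0.11, edgeR adjusted p = 0.0551). Both differences missed the threshold. In the list of adhesion and inflammation 1 of 15 genes passed, Il6, and in vessel wall matrix 1 of 29 rose (Adamts1) and 2 fell (Sparc and Col4a1), with 21 of 29 lower in aged cells and a median of -0.16. None of 12 senescence and p53 genes passed, 5 higher and 7 lower in aged cells (median -0.22). Of the 9 genes that the study names for ageing stromal cells 6 were tested and 1, Postn, fell, a list chosen on these libraries and so no independent evidence of direction. Of mural markers, none of 8 smooth muscle genes (7 lower in aged cells, median -0.15) and none of 7 pericyte genes (6 lower, median -0.52) passed, nor did any of 13 capillary, 9 general endothelial or 4 venous markers.

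Age differences of arterial cells were set against those of the other blood endothelial cells by testing the difference itself, on 12 sums with library as a block. Of 9405 genes 5 passed (0.0532%), and 503 had an unadjusted p under 0.05, with 1 without young TN, 2 without young 3D, 3 without aged TN, 9 without aged 3D and 1 without aged 14D. Rgs5, a regulator of G protein signalling that pericytes express, was lower in aged arterial sums, at 1305, 1755 and 1186 CPM in young and 694, 1172 and 1122 CPM in aged libraries, and higher in the aged sums of the other cells, at 178, 266 and 167 CPM in young and 236, 343 and 306 CPM in aged libraries (difference -1.05 ± 0.12, edgeR adjusted p = 0.000117). Without barcodes holding mural UMIs the Rgs5 difference was -0.38, and no gene passed (412 with an unadjusted p under 0.05). Rgs5 is itself 1 of the genes by which those barcodes were left out, so its value changes in part by construction. Sparc did not pass (-0.29, edgeR adjusted p = 0.828), nor did Il6 (1.09, edgeR adjusted p = 0.721), so no difference between the cell groups was shown for them.

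Cold was tested over both cold times together, with age as a term and 2 libraries at each temperature. Of 6963 genes tested 36 passed (0.517%), and 552 had an unadjusted p under 0.05. Leaving out 1 library gave 61 (young TN), 67 (young 3D), 129 (young 14D), 63 (aged TN), 16 (aged 3D) and 126 (aged 14D), and DESeq2 called 10. Mgp, Cytl1 and Gas1 rose in the cold at both ages, although single barcodes held most UMIs of Cytl1 in 3 of the 4 cold libraries and most of Mgp in 2. Hes1 and Igfbp3 fell, and 4 of 6 adipocyte markers tested rose at 3D. The share of members that held 3 or more adipocyte UMIs was 34.7 and 21.7% in the 3D libraries (young, aged) and 9.72 to 19.0% in the other 4.

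Mgp stood at 422, 883 and 919 CPM in young and 329, 1116 and 439 CPM in aged libraries. Both cold libraries were above TN at each age, though aged 14D was close to young TN (log2 fold change 1.47 at 3D and 0.89 at 14D, edgeR adjusted p = 0.00293). With 1 library left out its log2 fold change at 3D ran from 0.912 to 1.94. The UMIs of Mgp came from 111 members (15.8%), and single barcodes held 319 of 520 UMIs of aged 3D and 202 of 394 of young 14D. Without the top barcode of each library Mgp stood at 346, 663 and 448 CPM in young and 292, 432 and 356 CPM in aged libraries, and its log2 fold change at 3D was 0.82 (edgeR adjusted p = 0.0305). Without members holding 3 or more adipocyte UMIs, an alternative added after the data had been seen, that value was 1.18 (edgeR adjusted p = 0.0365), and without mural UMIs 2.78 (edgeR adjusted p = 0.0208). It passed in 15 of 19 alternatives, and not by DESeq2 (adjusted p = 0.372).

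Cytl1, which had the highest ratio over the other endothelial cells among genes at 100 CPM or more, stood at 41.5, 105 and 280.0 CPM in young and 47.3, 206 and 89.8 CPM in aged libraries (log2 fold change 1.78 at 3D and 2.14 at 14D, edgeR adjusted p = 0.0165). It was seen in only 46 members, and single barcodes held 90 of 120 UMIs of young 14D, 75 of 96 of aged 3D and 36 of 62 of young 3D. Without the top barcode of each library it stood at 27.7, 44.0 and 70.0 CPM in young and 29.9, 45.1 and 73.8 CPM in aged libraries. These levels lie under the 100 CPM that the ranking of ratios required, and the call was lost (1.45, edgeR adjusted p = 0.0674). Without Dcn UMIs it passed, at 0.48 at 14D (edgeR adjusted p = 0.0108). With 1 library left out its log2 fold change at 14D ran from 0.811 to 3.11. It did not pass by DESeq2 (adjusted p = 1.0). Gas1, a membrane protein that takes part in Hedgehog signalling and growth arrest, stood at 31.1, 107 and 86.3 CPM in young and 22.4, 105 and 67.3 CPM in aged libraries (log2 fold change 2.01 at 3D and 1.6 at 14D, edgeR adjusted p = 0.000940). In each age it was lowest at TN, also without the top barcode of each library (2.15, edgeR adjusted p = 0.00160), but without adipocyte-rich members its larger coefficient was 1.43 (edgeR adjusted p = 0.546) and the call was lost. Angptl2, a secreted angiopoietin-like protein, rose from 30.5 CPM at TN to 85.3 at 3D and 60.1 at 14D (log2 fold change 1.51 at 3D and 1.05 at 14D, edgeR adjusted p = 0.0278), a call also lost without adipocyte-rich members, at about the same size (1.37, edgeR adjusted p = 0.435).

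Hes1, the Notch-responsive repressor, stood at 694, 604 and 432 CPM in young and 751, 485 and 259.7 CPM in aged libraries. It stepped down from TN to 3D to 14D at each age (log2 fold change -0.40 at 3D and -1.03 at 14D, edgeR adjusted p = 0.0182) and was the 1 gene of 23 tested in the Notch list that passed. Its call was lost without adipocyte-rich members (-1.14, edgeR adjusted p = 0.0700) and without mural UMIs (-1.02, edgeR adjusted p = 0.171), at about the same size. Dll4 stayed between 150.3 and 186 CPM over the 6 libraries. Igfbp3, a binding protein of insulin-like growth factors, stood at 336, 216 and 187 CPM in young and 275, 133 and 128 CPM in aged libraries, again lower in the cold at each age (log2 fold change -0.80 at 3D and -0.91 at 14D, edgeR adjusted p = 0.0241), a call that was lost in the same way (-0.86 and -1.17, edgeR adjusted p = 0.181 and 0.106). Hspa1b, an inducible heat shock protein with a near-identical copy in Hspa1a, Gm13889 and Rrad were lowest at 3D in both ages, with log2 fold changes at 3D of -1.19, -0.80 and -0.74. Without mural UMIs Rrad was at -0.15 (edgeR adjusted p = 0.755), and without adipocyte-rich members Gm13889 was at -0.43 (edgeR adjusted p = 0.343) and Hspa1b at -1.13 (edgeR adjusted p = 0.134), and each of these calls was lost.

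The adipocyte markers that passed were highest at 3D. Car3, carbonic anhydrase 3 of adipocytes, stood at 171, 468 and 145 CPM in young and 167, 608 and 176 CPM in aged libraries (log2 fold change 1.69 at 3D and -0.017 at 14D, edgeR adjusted p = 9.67e-06). Adipsin (Cfd), resistin (Retn), Cidec of the lipid droplet, the fatty acid synthase Fasn, the desaturase Scd1 and the enzymes Cdo1, Gpd1 and Me1 also passed and were higher at 3D than TN in both ages. Scd1 (1.34) and Me1 (1.06) were still higher at 14D. Car3, Cfd, Retn and Cidec are 4 of the 6 adipocyte markers tested. Without members holding 3 or more adipocyte UMIs 7 genes passed, 5 of them from the 36, and Car3 (0.50) and Scd1 (0.65) did not, a loss that leaving out barcodes by Car3 itself brings about in part by construction. Cfd stood at 0.78 without mural UMIs (edgeR adjusted p = 0.0611) and at 0.58 without Dcn UMIs (edgeR adjusted p = 0.393).

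Pnpla2, the triglyceride lipase that starts fat breakdown in many cells, stood at 183, 438 and 322 CPM in young and 209, 485 and 250.1 CPM in aged libraries and had a UMI in 60.7% of members (log2 fold change 1.25 at 3D and 0.61 at 14D, edgeR adjusted p = 0.00223). It passed without the adipocyte-rich members too (1.21, edgeR adjusted p = 0.0365), and so did Hspb1, a small heat shock protein (-0.66). Of 19 genes of fat handling 2 passed, Fabp4 (log2 fold change 0.38 at 3D and 0.073 at 14D, edgeR adjusted p = 0.00484), higher at 3D, and Angptl4, an inhibitor of lipoprotein lipase, which was lower at 3D and higher at 14D in each age (log2 fold change -0.64 at 3D and 0.45 at 14D, edgeR adjusted p = 0.00665). Fabp4 at 3D ran from 0.231 to 0.510 with 1 library left out, and it did not pass by DESeq2 (adjusted p = 0.542). The clock genes Dbp (2.87 at 3D) and Nr1d1 (1.64 at 3D) passed at low levels, and the time of day of collection is not given in the sources used here.

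Postn (1.22 at 3D) and Cygb (1.25) rose most at 3D, and Col3a1 (1.14), Serpinf1 (1.48), Aebp1 (2.15), Gfpt2 (1.84) and Timp2 (1.13) most at 14D. Col3a1 at 14D ran from 0.685 to 1.70 with 1 library left out. Summed fibroblast markers were also higher at 14D than at TN at both ages. In Dcn-high barcodes the differences at 3D were -0.67 for Postn and 0.0079 for Cygb. At 14D they were -0.32 for Col3a1, -0.035 for Serpinf1, 0.094 for Aebp1, 0.63 for Gfpt2 and 0.21 for Timp2. The part of fibroblast RNA in the arterial values was not tested. Without adipocyte-rich members the values at 3D were 0.80 for Postn, 0.78 for Cygb, 0.31 for Ifi27l2a and 0.18 for Dbi, none of which passed. With all members Malat1, Rps29, Ifi27l2a and Dbi passed, and Hbb-bt, a haemoglobin gene, passed on UMIs of 12 members, 1 of which held 42.5% of them. The arterial markers outside the rule gave 1 call of 26 (0.517% of all genes passed), Mgp, with a median log2 fold change of 0.0086 at 14D, and vascular tone, flow response, junctions, angiogenic ligands and receptors, and BMP and TGF-beta signalling gave none, a count near the background for lists of 12 to 22 genes.

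**Figure D5:**
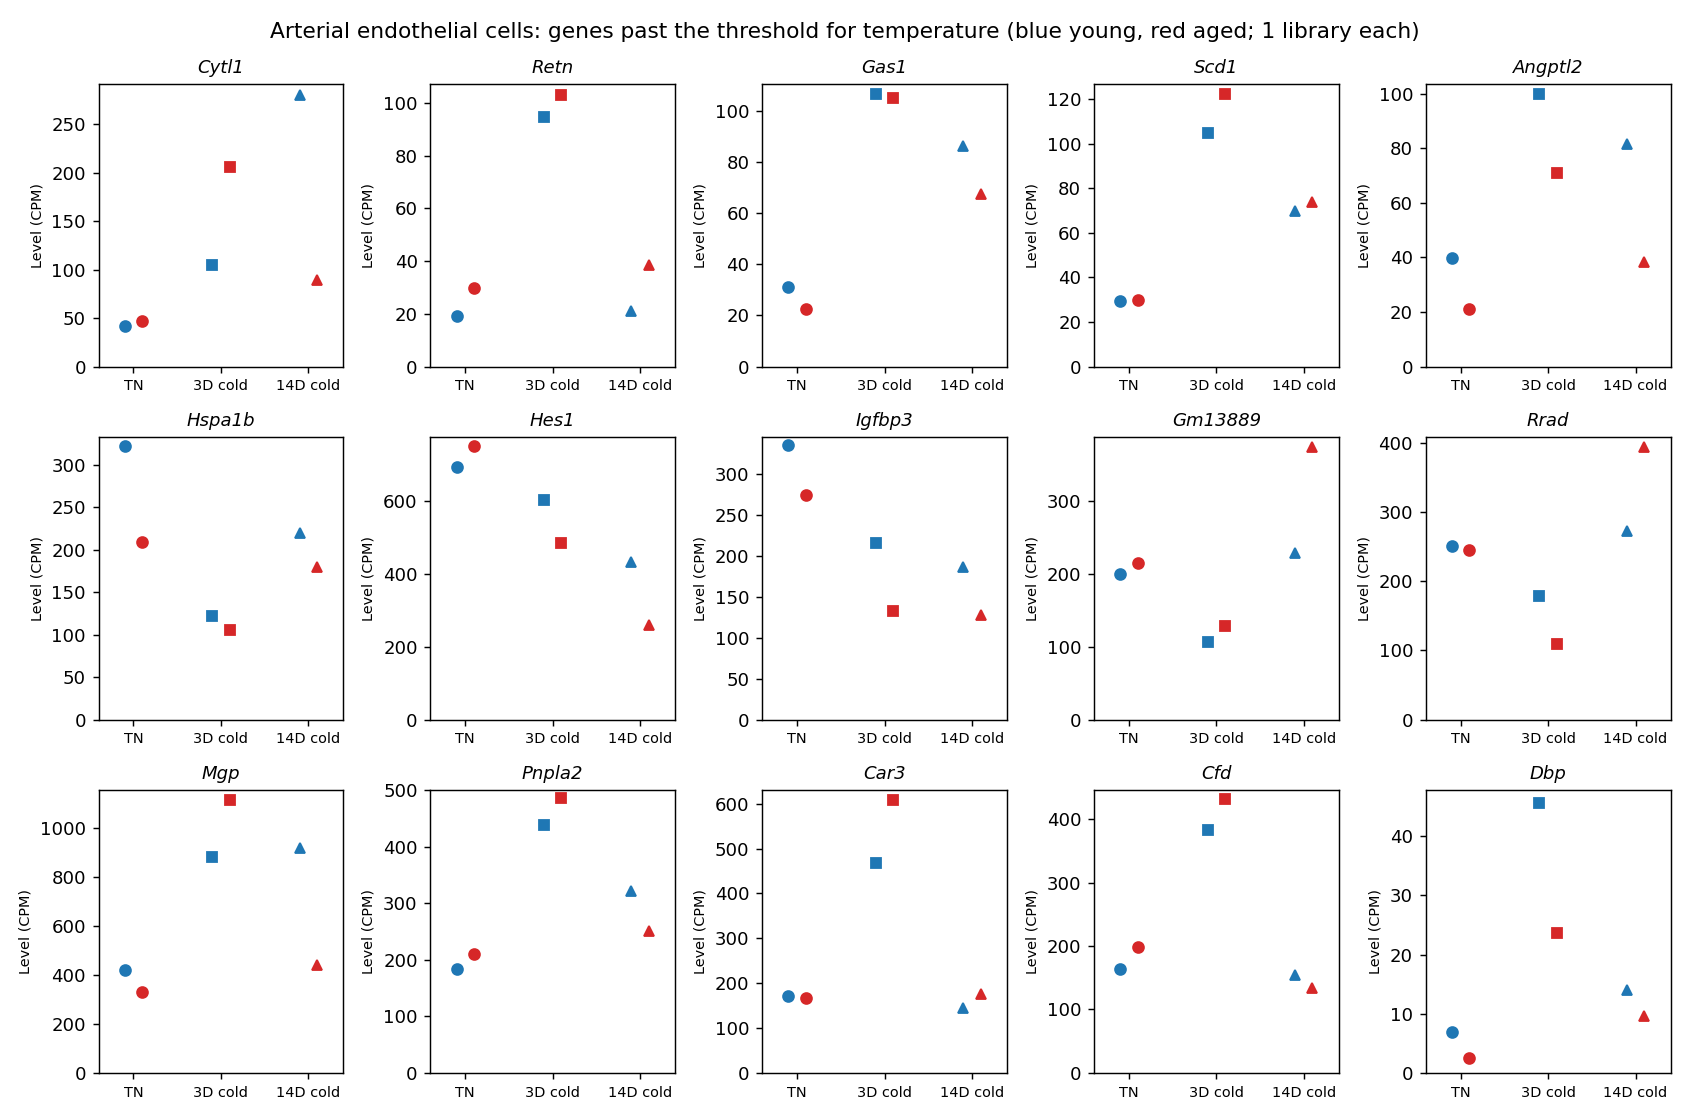
Level (CPM) at TN, 3D and 14D of the 10 genes named for temperature and of Mgp, Pnpla2, Car3, Cfd and Dbp in arterial endothelial cells, with young libraries in blue and aged libraries in red, 1 library each. Mgp and Gas1 lie above TN at both cold times in each age, Hes1 falls from TN to 14D in each age, and Car3 and Cfd peak at 3D.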

How the data were processed

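The authors deposited 1 gene-by-barcode matrix of raw UMI counts per library, made with Cell Ranger on mm10 from 3′ libraries, per the labels and the study's methods. The members and gene lists were chosen with earlier results of these data known. UMI counts of members were summed per library; TMM factors, filterByExpr and the quasi-likelihood test of edgeR 4.0.16 (R 4.3.3) gave the tests, with DESeq2 1.42.0 as an alternative. The age model left 2 residual degrees of freedom, and its standard error is the fold change over the root of F. Genes of the rule stayed in the fits and in the adjustment of p-values (9 of them for age), but their results are left out of every count and call. Log2 ratios used CPM + 1 with no test. Genes were named by size: up to 10 rises and 10 falls for age and 5 and 5 for temperature at 50 CPM or more, up to 5 for the interaction, and 20 and 10 ratios at 100 CPM or more, beside members of the lists. Intervals are exact binomial at 95% and cover counting error only. High Scrublet scores (scanpy 1.11.5) were left out only in an alternative. The fits were tested on simulated sums with the same dispersion for every gene. That setting is simpler than these data, so the test does not bear on single calls. Gene positions are from the GENCODE M21 annotation of GRCm38, and promoters from RefSeq.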

Additional observations from a re-analysis of the deposited data

Results flagged for a closer look

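The age differences of 5 genes differed between arterial and other blood endothelial cells by the interaction test, which called 0.0532% of genes. Rgs5, a pericyte gene, gave -1.05 ± 0.12, edgeR adjusted p = 0.000117. Irs2, an adaptor of the insulin receptor, stood at 41.5, 49.0 and 32.7 CPM in young and 82.2, 70.8 and 112 CPM in aged libraries among arterial cells and between 29.9 and 53.5 CPM among the others, a difference of 1.51 ± 0.26, edgeR adjusted p = 0.0210. Fst, the activin antagonist follistatin, lay between 34.4 and 81.2 CPM in arterial cells, with the ages overlapping, and fell from 94.2 to 23.1 CPM in the other cells, a difference of 1.89 ± 0.32, edgeR adjusted p = 0.0210.

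Timp4, an inhibitor of metalloproteinases that capillary cells express, gave -0.60 ± 0.11, edgeR adjusted p = 0.0462, with means of 721 and 587 CPM in young and aged arterial cells and 721 and 911 CPM in the others. Enpp2, the enzyme autotaxin, gave 1.65 ± 0.31, edgeR adjusted p = 0.0466 on 95 UMIs in all arterial cells. Without barcodes holding mural UMIs none of the 5 passed, and the values were -0.38 for Rgs5, 2.06 for Irs2, 2.34 for Fst, -0.33 for Timp4 and 2.07 for Enpp2. Those barcodes were left out by Rgs5 among other genes, so its value changes in part by construction. By DESeq2 1 of the 5 passed, Rgs5.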

How the results depend on the processing

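The labels carry no replicate numbers, so no block by number was fitted, and the ages were matched by temperature through the temperature term. The 19 genes for age became 8 by DESeq2, 62 with no filter on low counts, 35 with at least 3 arterial UMIs, 2 without high doublet scores, 1 without mural UMIs, 2 with equal barcodes at 2000 UMIs, 37 without each gene's top barcode, 7 without adipocyte UMIs and 0 with no temperature term (539 with an unadjusted p under 0.05); leaving out 1 library gave 2 (without young 3D) to 58. The 36 genes for temperature became 10 by DESeq2, 99 with no filter, 22 with at least 2000 UMIs, 18 without high doublet scores, 4 without mural UMIs, 7 without Dcn UMIs, 21 with equal barcodes, 9 with no age term and 7 without adipocyte UMIs; leaving out 1 library gave 16 (without aged 3D) to 129. The 155 genes of the other blood endothelial cells became 57 by DESeq2 and 4 (without aged 3D), 5 (without young 3D) to 406 with 1 library left out. The 5 interaction genes became 1 by DESeq2, 29 with no filter, 3 with at least 2000 UMIs, 0 without mural UMIs (412 unadjusted), 1 without Dcn UMIs and 0 with equal barcodes (254 unadjusted); leaving out 1 library gave 1 to 9. With RLE factors the 3 arterial counts were 19, 36 and 5. The aged minus young share of blood endothelial barcodes, -0.461 percentage points, was 0.144 without high doublet scores and -1.75 to 0.427 with 1 library left out, and that of all barcodes, 0.314, was -0.0991 to 0.577. Among single genes the ratios of Acta2 (-0.44), Myh11 (-0.80), Ppp1r14a (-0.53), Ndufa4l2 (-1.30), Mnd1 (-1.50), Myl9 (-1.11) and Tpm2 (-1.74) reversed without mural UMIs, and Hbb-bt (-6.01) with at least 3 arterial UMIs. The cause of the other changes was not tested. With 300705 to 828463 UMIs per sum, genes of under about 20 CPM rest on a few UMIs.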

Other observations

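Counts in other gene groups stand beside the shares of all genes that passed, 0.295% for age and 0.517% for temperature. Of 20 immediate early and dissociation genes, which rise while tissue is digested, none passed for age (median log2 fold change 0.14) and 1, Hspa1b, passed for temperature, and 10 of the 20 were higher in arterial than in other blood endothelial cells in 6 of 6 libraries, where 1026 of all 8191 genes measured were. Of 29 genes of class I antigen presentation and interferon response 1, H2-Q7, rose with age and 1, Ifi27l2a, passed for temperature. Of 14 glucocorticoid and circadian genes 1, Mt1, rose with age, and of 16 tested for temperature Dbp and Nr1d1 passed. Cell cycle genes were scarce, with 2 of 14 abundant enough to be tested for age and neither past the threshold.

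Meg3, a long noncoding RNA and 1 of the genes the study names for ageing stromal cells, stood at 189, 309 and 338 CPM in young and 167, 40.8 and 109 CPM in aged libraries in arterial cells (log2 fold change -1.33 ± 0.29, edgeR adjusted p = 0.0544), which missed the threshold.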
